A study of Mus musculus with 22 samples.

Results

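BV2 cells are a mouse microglial line, made by immortalising microglia with a retrovirus that carries the oncogenes v-raf and v-myc, and they are used in place of primary microglia. The comparison set unstimulated BV2 control cells against primary mouse microglia, in 6 of the 22 samples of a study of mutant huntingtin in microglia. The BV2 side held 4 libraries. In 2 of them the cells carried the empty lentiviral vector pCDH-CMV-MCS-EF1-Puro, and in the other 2 they carried an N-terminal fragment of wild-type human huntingtin with 15 glutamines, expressed from the CMV promoter of that vector. Each construct was sampled at 24 h and at a second time, which the sample labels give as 48 h and the header of the deposited table as 6 h, so it is called the second time here. The microglia side held 2 libraries, 1 from mice with the Htt genotype Q7/7 and 1 from Q175/175 mice, whose knock-in allele codes for an expanded glutamine tract. The labels describe adult microglia isolated from cortex, striatum and hippocampus on a Percoll gradient and sorted as CD11b+ CD45low, but also give a culture medium for primary microglia, without saying which handling, or how many animals, stood behind the 2 libraries. A pair of bone marrow-derived macrophage libraries, of the same 2 genotypes, stayed out of every test and are given as context. Nothing in the labels says that libraries of a side came from separate cultures or litters, so the tests measure only the spread between these libraries. The cell type, the immortalisation, the culture and the lentivirus all differ between the sides, and these cannot be told apart in this design.

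Microglia are the resident macrophages of the brain. They depend on CSF1 receptor signalling for survival and on TGF-beta for their mature identity, and in the resting state they carry a set of homeostatic genes, among them the purinergic receptor P2ry12, the fractalkine receptor Cx3cr1, the surface protein Tmem119 and the transcription factor Sall1, that other macrophages largely lack. PU.1, IRF8 and the C/EBP proteins are transcription factors that set up the wider macrophage programme, and immortalised lines are known to keep only some of the programme of the tissue they came from.

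Levels were deposited as RPKM, mapped reads scaled to transcript length and library depth, and the values of BV2 cells are given below in the order empty vector at 24 h, empty vector at the second time, wild-type fragment at 24 h and wild-type fragment at the second time, followed by microglia in the order Q7/7 and Q175/175. The lowest RPKM steps put the depth at 11.1 to 14.0 M (1e6) mapped reads in the BV2 libraries, against 34.3 and 28.8 M in the microglia libraries, with 3.62 to 4.69 M reads in genes in BV2 libraries, against 10.9 and 8.51 M in microglia. A single read of a transcript of 2000 bases was worth 0.0357 to 0.0450 RPKM in BV2 libraries, against 0.0146 and 0.0174 RPKM in microglia, so a gene listed at 0 in BV2 cells was below a less sensitive limit. Transcripts shorter than 200 bases, which were not tested, took 8.38 to 9.40% of the summed RPKM in BV2 libraries, against 75.7 and 75.8% in microglia, and 42.4 and 39.5% in macrophages. Neutrophil genes were also present on the microglia side: the RPKM of 13 neutrophil markers summed to 6.95, 5.84, 6.49 and 4.46 in BV2 cells, against 1878 and 631 in microglia. The huntingtin gene Htt had 3.97, 2.86, 3.62 and 2.94 RPKM in BV2 cells, against 3.40 and 2.72 RPKM in microglia (adjusted p = 0.584).

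Of 22736 gene symbols with a transcript of 200 bases or more, 10812 reached 1 RPKM in at least 2 of the 6 libraries and were tested with limma on log2(RPKM + 1), with p-values adjusted over all of them by the method of Benjamini and Hochberg. At an adjusted p under 0.05, 4755 genes (44%) were higher in BV2 cells and 3179 (29.4%) were lower, and at least 4-fold differences made up 1351 (12.5%) and 734 (6.79%) of the genes. The median difference over all tested genes was 0.31 on the log2 scale rather than 0, and 59.9% of the called genes were higher in BV2 cells, against 49.1% after quantile normalization and 48.9% after median-ratio scaling, so differences near that median carry no sign of their own. A gene is called kept below where the 95% interval of its difference lay within 2-fold in either direction, so a small difference can be kept and pass the test as well. That held for 3532 genes (32.7%), and for 925 (8.56%) that also had 5 RPKM or more in all 6 libraries. Of those 925, 598 (64.6%) also lay within 2-fold after quantile normalization and 680 (73.5%) after median-ratio scaling, so kept depends on the scale. A gene is called lacked where it was under 0.5 RPKM in all 4 BV2 libraries and at 5 RPKM or more in both microglia libraries, which held for 182 genes (1.68%), and gained in the reverse case, which held for 203 (1.88%). Lacked genes passed the filter only through the microglia libraries and gained genes only through the BV2 libraries. Their direction was thus set by the filter. The BV2 and microglia libraries did not overlap for 8832 genes (81.7%), so absence of overlap alone says little about any gene here. The 12 genes with the largest differences downward in BV2 cells held homeostatic and immediate-early genes, C1qa and S100a9, but also the short structural RNAs Vaultrc5, Snord17, Rpph1 and Rmrp, which carry no poly(A) tail, although the labels give poly(A) RNA as the molecule. Rmrp, the RNA of a mitochondrial and nucleolar ribonuclease, had 98.5 to 160.2 RPKM in BV2 cells, against 29455 and 22727 in microglia and 5619 and 8777 in macrophages.

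Homeostatic genes were low or missing in BV2 cells. All 33 on the list were tested and all 33 were lower in BV2 cells, 32 of them at least 4-fold, against 29.4% and 6.79% of all tested genes. Their median difference was -5.17 on the log2 scale, 17 were lacked outright and none was kept. These 17 passed the filter only through the microglia libraries, so their direction was fixed in advance. The list was also chosen with earlier results known, so these shares describe it and do not test it. The purinergic receptor P2ry12, which senses nucleotides leaking from injured cells, had 0.039, 0.061, 0 and 0.034 RPKM in BV2 cells, against 477 and 410.0 RPKM in microglia (log2 difference -8.75, SE 0.11, adjusted p = 1.89e-07). Tmem119 was present at a low level, with 1.26, 1.86, 1.28 and 1.26 RPKM in BV2 cells, against 334 and 288 RPKM in microglia (log2 difference -7.02, SE 0.14, adjusted p = 3.27e-07). In bulk RNA, fewer cells of a type and less RNA per cell cannot be told apart. Each of the 33 genes was lower in each of the 4 BV2 libraries than in both microglia libraries. The libraries of the 2 sides did not overlap for 81.7% of all tested genes either.

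Sall1, the zinc finger factor that holds microglia in their mature state, was listed at 0 in all 4 BV2 libraries, against 33.3 and 36.4 RPKM in microglia. The sialic acid-binding receptor Siglech (165 and 151 RPKM in microglia), the Fc receptor-like gene Fcrls (282 and 192 RPKM), the matrix protein gene Sparc (208 and 162 RPKM), the sulfotransferase gene Gal3st4 (26.2 and 20.0 RPKM) and the uroplakin gene Upk1b (37.1 and 22.0 RPKM) were likewise listed at 0 throughout BV2 cells. Cx3cr1, the receptor for neuronal fractalkine, had 0, 0.019, 0.02 and 0.042 RPKM in BV2 cells, against 464 and 332 RPKM in microglia. The lysophosphatidylserine receptor gene Gpr34 had 0.048, 0, 0.04 and 0 RPKM in BV2 cells, against 464 and 373 RPKM in microglia. None of these 8 genes therefore had more than trace reads in the line. Other lacked members were the secreted olfactomedin Olfml3 (0.041 to 0.088 RPKM in BV2 cells, against 199 and 147 in microglia), the nucleotide receptor P2ry13 (0.15 to 0.25 against 161 and 129.8), the organic anion transporter Slco2b1 (0.031 to 0.097 against 133 and 113) and the fructose transporter Slc2a5 (0 to 0.046 against 54.1 and 41.9).

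A second group of homeostatic genes was expressed in BV2 cells, but far below microglia. Cst3, the gene of the protease inhibitor cystatin C, had 166, 132, 165 and 130.2 RPKM in BV2 cells, against 3495 and 3590.1 RPKM in microglia (log2 difference -4.58, SE 0.15, adjusted p = 1.33e-06). It was thus expressed in BV2 cells, with the libraries of the 2 sides far apart. The Golgi membrane protein gene Golm1 had 8.04, 7.71, 7.37 and 8.02 RPKM in BV2 cells, against 118 and 93.7. The selectin ligand Selplg had 10.8, 6.29, 10.6 and 6.32 RPKM, against 215 and 203. The smallest difference on the list was that of the Nogo receptor-like gene Rtn4rl1, at 1.09, 0.432, 0.988 and 0.526 RPKM in BV2 cells, against 4.82 and 5.59 in microglia (log2 difference -1.83, SE 0.19, adjusted p = 0.000181). The 2 BV2 times were apart for the leukotriene C4 synthase gene Ltc4s, which had 4.33, 0.369, 3.53 and 0.543 RPKM in BV2 cells, against 106 and 99.5, with the higher values at 24 h for both constructs. The RPKM of the 33 genes summed to 317, 199, 324 and 201 in BV2 cells, against 9766 and 8868 in microglia, and to 738 and 896 in macrophages. The macrophages expressed P2ry6 and Ly86, with 39.1 and 38.2 RPKM of P2ry6 and 47.9 and 51.2 RPKM of Ly86.

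**Figure D1:**
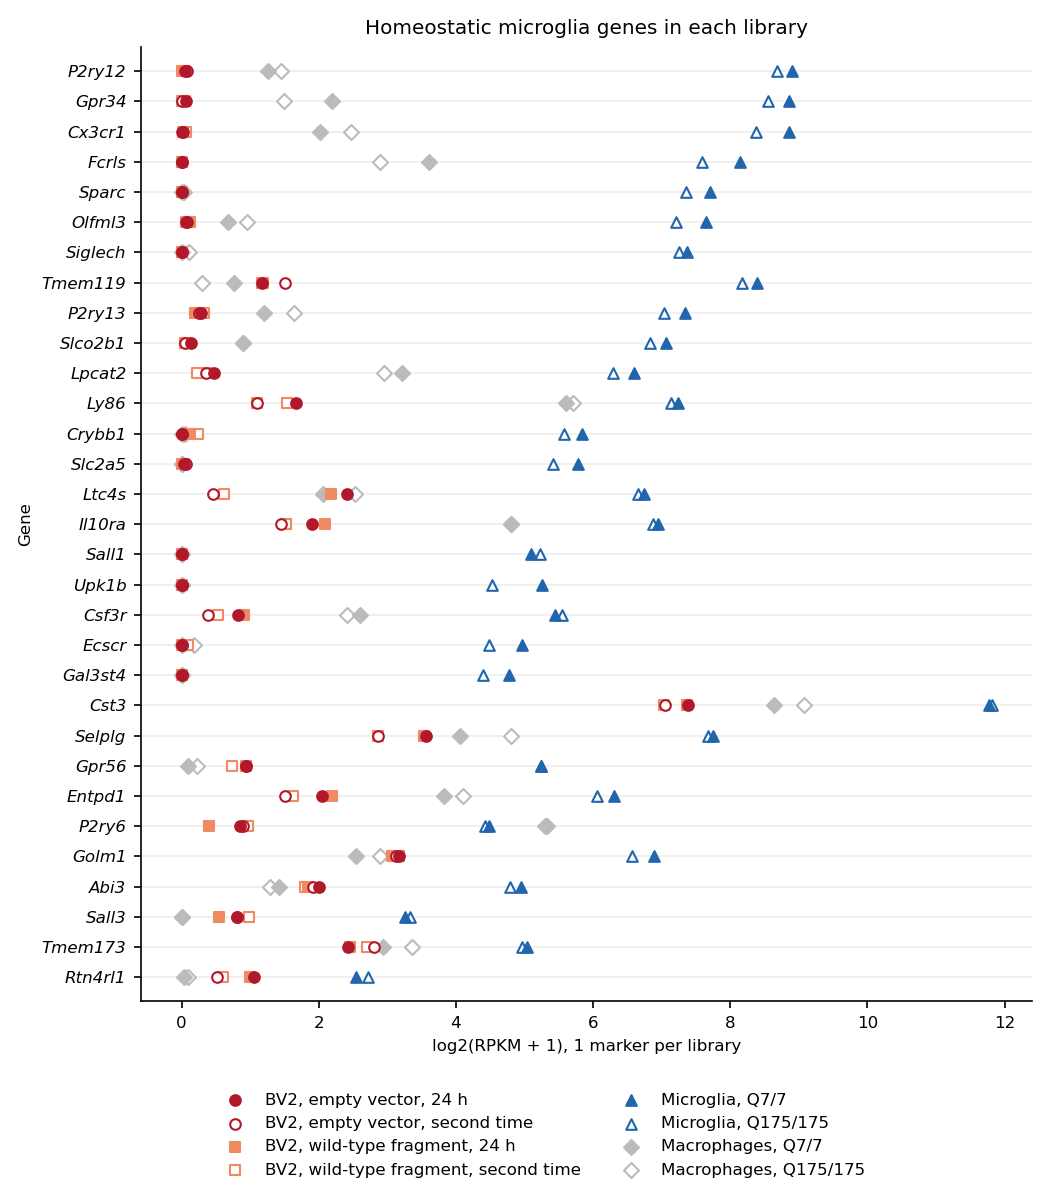
log2(RPKM + 1) of 31 of the 33 homeostatic microglia genes (rows, ordered by the difference) in each library (horizontal axis), with 1 marker for each of the 4 BV2, 2 microglia and 2 macrophage libraries. The BV2 markers lie to the left of the microglia markers in every row, and 16 genes are under 0.5 RPKM in all 4 BV2 libraries.

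The chromatin at these genes could be read from the peak lists of the same BV2 control cells, which were deposited for H3K4me2, a histone mark of active and primed promoters and enhancers, and for PU.1 and the C/EBP proteins. Of the 33 homeostatic genes, 21 had an H3K4me2 peak and 15 a PU.1 peak within 1000 bases of the transcript start in empty-vector cells, 11 had both and 8 had neither. Among the 17 under 0.5 RPKM in BV2 cells, 6 had H3K4me2, 7 had PU.1, 3 had both and 4 had PU.1 without H3K4me2. Those 4 were Siglech, Fcrls, Gpr34 and Gal3st4, whereas Cx3cr1, Olfml3 and Slco2b1 had both marks and P2ry12, Sall1, Sparc, Crybb1, Upk1b and Ecscr were among those with neither. For comparison, 88.6% of all tested genes had an H3K4me2 peak and 38.9% a PU.1 peak in that window, while of the 701 tested genes with a BV2 mean under 0.5 RPKM 36.2% and 19.5% did. The PU.1 peak was also in the list of wild-type fragment cells for 6 of the 7 genes, the exception being Slco2b1. Each list came from 1 library, so these are descriptions with no test.

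The PU.1 core motif was looked for in the promoter sequences of such genes, because a PU.1 peak stood both near genes under 0.5 RPKM and near kept genes. The sequences run from 250 bases before to 50 bases after the transcript start, are those of RefSeq on GRCm38.p6 and were available for 18 of the 33 homeostatic genes. The letters GAGGAA, on either strand, were in 10 of their 23 promoters (43.5%) and in 15 of 31 promoters of pan-macrophage genes (48.4%). They were in 52 of 161 promoters of the lacked genes (32.3%) and in 247 of 936 promoters of the kept genes at 5 RPKM or more (26.4%). Of all 32851 promoters in the reference table, 28.3% held them. Siglech (under 0.5 RPKM in BV2 cells, PU.1 peak) and P2ry12 (under 0.5 RPKM, no peak) are shown with Laptm5 and Plek (kept in BV2 cells, with both PU.1 and H3K4me2 peaks), with the motif in capitals, written TTCCTC where it is on the other strand.
Siglech (chr7:55767934-55768233, plus strand): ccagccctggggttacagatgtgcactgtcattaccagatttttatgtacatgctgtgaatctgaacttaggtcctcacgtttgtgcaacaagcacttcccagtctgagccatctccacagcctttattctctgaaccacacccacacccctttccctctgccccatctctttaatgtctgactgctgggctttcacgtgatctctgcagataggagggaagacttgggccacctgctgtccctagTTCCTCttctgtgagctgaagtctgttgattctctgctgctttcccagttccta
P2ry12 (chr3:59262936-59263235, minus strand): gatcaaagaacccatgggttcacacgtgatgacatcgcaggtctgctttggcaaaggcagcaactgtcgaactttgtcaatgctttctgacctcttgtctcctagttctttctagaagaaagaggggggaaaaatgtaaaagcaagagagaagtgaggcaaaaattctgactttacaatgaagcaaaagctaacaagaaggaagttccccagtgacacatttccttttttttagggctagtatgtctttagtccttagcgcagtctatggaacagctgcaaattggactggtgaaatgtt
Laptm5 (chr4:130913066-130913365, plus strand): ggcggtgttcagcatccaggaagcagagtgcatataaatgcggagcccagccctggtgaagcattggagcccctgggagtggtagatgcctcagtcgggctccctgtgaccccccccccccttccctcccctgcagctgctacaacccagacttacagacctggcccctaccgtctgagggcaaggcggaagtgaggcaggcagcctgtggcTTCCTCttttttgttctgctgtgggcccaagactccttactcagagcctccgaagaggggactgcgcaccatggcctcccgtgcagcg
Plek (chr11:17008669-17008968, minus strand): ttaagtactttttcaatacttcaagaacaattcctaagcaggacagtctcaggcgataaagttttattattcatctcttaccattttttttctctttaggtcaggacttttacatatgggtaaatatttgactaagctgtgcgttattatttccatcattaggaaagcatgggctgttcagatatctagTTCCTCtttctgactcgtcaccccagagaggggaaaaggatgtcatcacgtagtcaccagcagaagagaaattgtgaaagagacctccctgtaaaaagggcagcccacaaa
The motif stood once in Siglech, Laptm5 and Plek, and these letters were not in the P2ry12 window. Of 2 lacked genes with a PU.1 peak whose windows are not shown, Fcrls held it 1 time and Cx3cr1 did not hold it. A PU.1 peak thus stood near Cx3cr1 without these letters in its window. The matches are a description of the letters only.

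Receptors with which microglia sense their surroundings were low as well, 6 of them being on the homeostatic list too. Of 23 tested receptors for chemokines, nucleotides and chemoattractants, 19 were lower in BV2 cells, 15 of them at least 4-fold, against 29.4% and 6.79% of all tested genes. Of these receptors 8 were lacked and none was kept, with a median difference of -2.86. The ATP-gated channel P2rx7, which triggers the inflammasome, had 5.67, 3.18, 4.13 and 4.10 RPKM in BV2 cells, against 26.9 and 28.9 RPKM in microglia (log2 difference -2.47, SE 0.19, adjusted p = 4.49e-05). The platelet-activating factor receptor Ptafr had 0.446, 0.59, 0.544 and 0.695 RPKM in BV2 cells, against 29.5 and 28.8 RPKM in microglia. The adenosine receptor Adora3 had 0.266, 0.151, 0.16 and 0.133 RPKM in BV2 cells, against 20.9 and 17.7 RPKM in microglia, and the fatty acid receptor Gpr84 had 0.233, 0.231, 0.196 and 0.357 RPKM in BV2 cells, against 16.2 and 13.3 RPKM in microglia. All 3 were called lower, with every BV2 library under 1 RPKM. Ccr2, the receptor that brings monocytes into tissue, was listed at 0 in BV2 cells and low in microglia, at 5.09 and 2.29 RPKM, against 92.8 and 104 RPKM in macrophages.

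The exceptions among the receptors were Cxcr4, P2ry2 and S1pr2, which were called higher in BV2 cells. The CXCL12 receptor Cxcr4 had 10.0, 6.90, 9.40 and 7.54 RPKM in BV2 cells, against 3.50 and 1.57 RPKM in microglia (log2 difference 1.46, SE 0.25, adjusted p = 0.00209). The sphingosine 1-phosphate receptor S1pr2 had 8.73, 5.10, 6.92 and 5.20 RPKM in BV2 cells, against 0.986 and 0.89 RPKM in microglia. P2rx4, an ATP-gated channel that is induced on activated microglia, had 14.1, 4.44, 11 and 5.22 RPKM in BV2 cells, against 9.39 and 9.98 RPKM in microglia (adjusted p = 0.595), so its libraries overlapped. Among 15 tested channels, 8 were lower, 2 were higher and 3 were kept, against 29.4%, 44% and 32.7% of all tested genes. The tandem pore-domain potassium channel gene Kcnk13 had 2.56, 1.87, 2.48 and 2.04 RPKM in BV2 cells, against 10.5 and 9.10 RPKM in microglia (log2 difference -1.74, SE 0.14, adjusted p = 4.87e-05). The proton channel gene Hvcn1 had 5.68, 3.92, 5.78 and 2.99 RPKM in BV2 cells, against 32.8 and 31.8 RPKM in microglia. The calcium-permeable Trpm2 had 0.149, 0.138, 0.063 and 0.098 RPKM in BV2 cells, against 15.3 and 13.3 RPKM in microglia. The kept channels were the cation channel gene Trpv2, the channel-kinase gene Trpm7 and the chloride channel gene Clic1, for which BV2 cells had 64.6, 72.6, 55.5 and 70.9 RPKM, against 59.8 and 37.7 in microglia. Trpv2 left the 2-fold interval after quantile normalization and after median-ratio scaling, while Trpm7 and Clic1 stayed.

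Most of the myeloid transcription factors were lower in BV2 cells. Of 34 tested, 22 were lower, 5 were higher and 9 were kept, against 29.4%, 44% and 32.7% of all tested genes, with a median difference of -1.26. Spi1, which codes for PU.1, had 26.9, 28.7, 25.8 and 30.3 RPKM in BV2 cells, against 31.2 and 30.7 RPKM in microglia, a difference of -0.15 with a 95% interval of -0.41 to 0.11. Cebpb, whose product drives the inflammatory and cytokine response of macrophages, had 51.6, 37.1, 52.4 and 32.9 RPKM in BV2 cells, against 48.2 and 55.1 RPKM in microglia, with an interval of -0.80 to 0.26. Bhlhe41 (8.76 to 12.6 RPKM in BV2 cells, against 11.9 and 12.0), Hhex, Mitf, Elf4, Etv5, Etv6 and Ets2 were the other kept factors. Both microglia libraries lay just above the BV2 range for Spi1, and 1 of them lay inside it for Cebpb. Of the 9 kept factors, 5 stayed within 2-fold after quantile normalization and 5 after median-ratio scaling. Spi1 then differed by -0.87 (adjusted p = 0.000185, limma) and -0.55 (adjusted p = 0.00151), which passed as lower on both scales. Cebpb differed by -1.07 (adjusted p = 0.0117) and -0.68 (adjusted p = 0.068), which passed on the first.

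Among the factors that were lower, Irf8, which is required for microglial development, had 16.2, 13.8, 14.5 and 14.7 RPKM in BV2 cells, against 57.6 and 52.1 RPKM in microglia (log2 difference -1.82, SE 0.11, adjusted p = 1.61e-05). Cebpa had 5.63, 5.88, 5.74 and 5.22 RPKM in BV2 cells, against 65.6 and 92.4 RPKM in microglia (log2 difference -3.58, SE 0.15, adjusted p = 3.89e-06). Mef2a, a MADS-box factor of microglial enhancers, had 5.86, 4.10, 5.69 and 4.34 RPKM in BV2 cells, against 53.3 and 53.9 RPKM in microglia (log2 difference -3.20, SE 0.16, adjusted p = 6.99e-06). Each of these was expressed in BV2 cells above 1 RPKM, so the line had less of them rather than none. Runx1 (1.45 to 2.04 RPKM in BV2 cells, against 10.3 and 13.2), Irf5 (9.78 to 13 against 52.0 and 47.6), Ikzf1 (4.13 to 4.61 against 30.1 and 32.1) and Fli1 (3.83 to 6.18 against 21.9 and 21.5) followed the same pattern. Ets1 was the 1 lacked factor, at 0.036 to 0.156 RPKM in BV2 cells, against 16.0 and 11.6. Klf2 and Klf4 dampen inflammation and are also on the immediate-early list. There were 2.53 to 5.24 RPKM of Klf2 in BV2 cells, against 81.4 and 119 in microglia, and 0.987 to 2.95 RPKM of Klf4 in BV2 cells, against 22.3 and 33.5 in microglia.

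The 5 factors that were higher in BV2 cells were Bhlhe40, Tfec, Nr1h3, Rxra and Pparg. Bhlhe40, a repressor that restrains IL-10 in macrophages, had 29.7, 19.0, 30.0 and 19.9 RPKM in BV2 cells, against 0.601 and 0.727 RPKM in microglia (log2 difference 3.92, SE 0.22, adjusted p = 1.25e-05). Tfec, a macrophage member of the MiT family, had 6.66, 4.60, 5.15 and 5.17 RPKM in BV2 cells, against 0.429 and 0.157 RPKM in microglia (log2 difference 2.30, SE 0.16, adjusted p = 3.18e-05). Pparg, the lipid-sensing nuclear receptor of alveolar and foamy macrophages, had 3.27, 0.77, 2.98 and 0.493 RPKM in BV2 cells, against 0.066 and 0.04 RPKM in microglia (log2 difference 1.30, SE 0.47, adjusted p = 0.0436), with the higher BV2 values at 24 h. The call of Pparg was lost without either 24 h library, the adjusted p being 0.067 without that of the empty vector and 0.0737 without that of the wild-type fragment, and without either microglia library, at 0.197 without Q7/7 and 0.209 without Q175/175. Rxra, the partner of both Pparg and the oxysterol receptor gene Nr1h3, had 17.7, 13.9, 16.7 and 13.8 RPKM in BV2 cells, against 7.46 and 7.69 RPKM in microglia (log2 difference 0.94, SE 0.14, adjusted p = 0.000932), with an adjusted p of 0.0566 after quantile normalization. Tfec, Nr1h3 and Pparg were also expressed in the macrophage libraries, with 10.3 and 10.3 RPKM of Tfec, 4.36 and 5.71 RPKM of Nr1h3 and 16.5 and 18.2 RPKM of Pparg, and Bhlhe40 was at 3.77 and 3.34 RPKM there. An H3K4me2 peak stood near the start of 32 of the 35 listed factors in empty-vector BV2 cells, including 21 of the 22 that were lower, Mef2c being the exception, and a PU.1 peak near 11 of the 35, Spi1 and Cebpb among them. These shares, 91.4% for H3K4me2 and 31.4% for PU.1, were near or below the 88.6% and 38.9% of all tested genes.

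**Figure D2:**
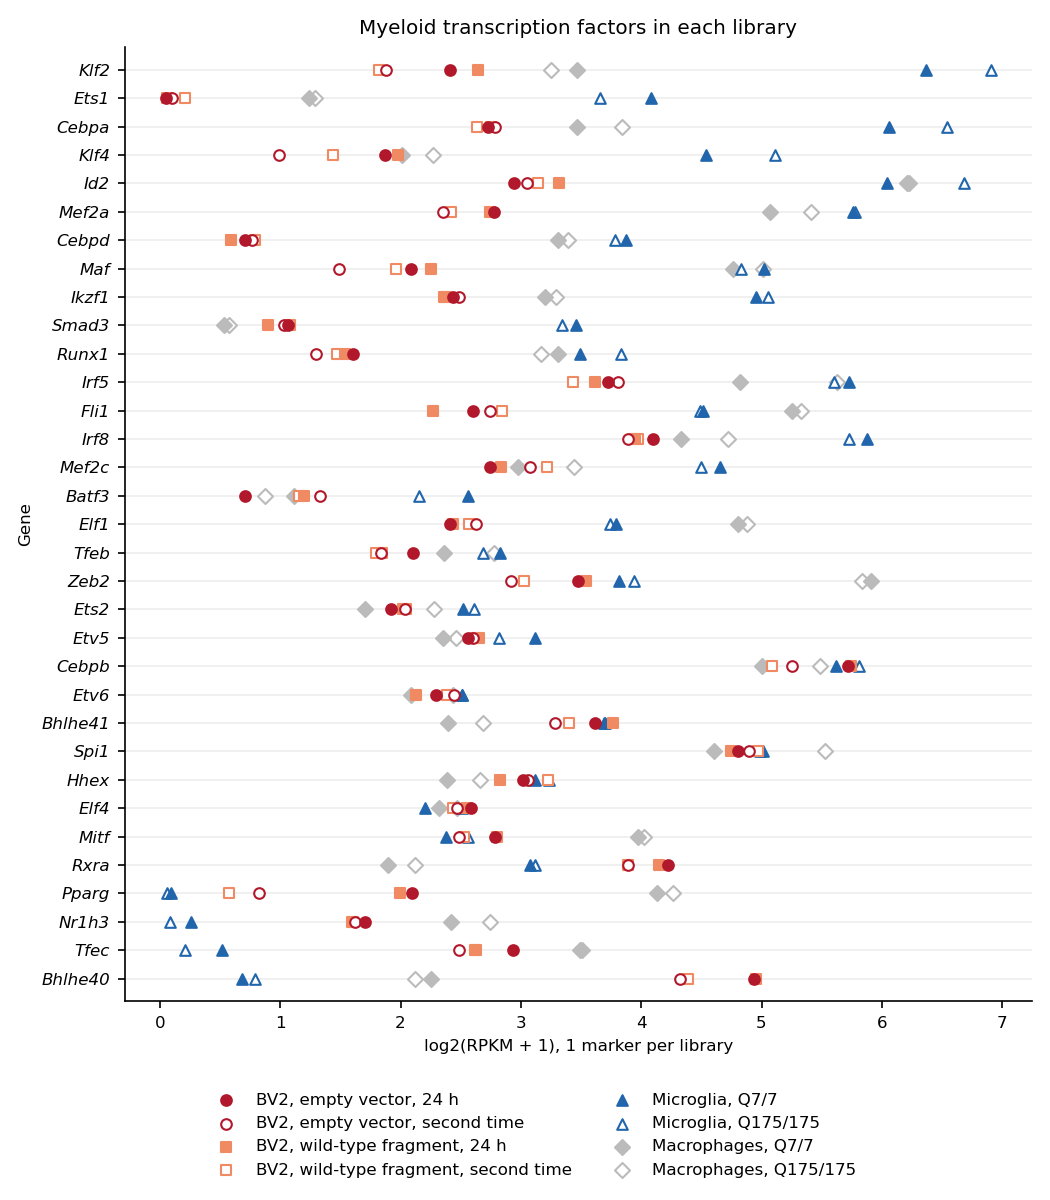
log2(RPKM + 1) of 33 of the 34 tested myeloid transcription factors (rows, ordered by the difference) in each library (horizontal axis), with 1 marker for each of the 4 BV2, 2 microglia and 2 macrophage libraries. The BV2 and microglia markers of Spi1 and Cebpb lie together, among 9 factors kept within 2-fold, the 21 factors shown that were lower in BV2 cells fill the upper rows and the 5 that were higher the lowest rows.

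The pathways that keep microglia alive and mature in the brain were lower at the level of their receptors. Csf1r, the receptor for CSF1 and IL-34 on which microglia depend, had 29.3, 22.3, 26.4 and 23.9 RPKM in BV2 cells, against 569.5 and 532 RPKM in microglia (log2 difference -4.39, SE 0.13, adjusted p = 1.16e-06). Macrophages had 252 and 247 RPKM. Tgfbr1, the type I TGF-beta receptor, had 3.51, 4.18, 4.26 and 4.48 RPKM in BV2 cells, against 188 and 159.9 RPKM in microglia (log2 difference -5.10, SE 0.13, adjusted p = 5.58e-07). Tgfbr2 had 4.55, 2.25, 4.91 and 2.63 RPKM in BV2 cells, against 61.6 and 59.6 RPKM in microglia (log2 difference -3.80, SE 0.27, adjusted p = 3.41e-05). Both subunits were thus low in all 4 BV2 libraries, while the ligand Tgfb1 was higher, with 25.6, 18.3, 22.9 and 19.8 RPKM in BV2 cells, against 7.40 and 10.1 RPKM in microglia (log2 difference 1.22, SE 0.18, adjusted p = 0.000946). Of 17 tested TGF-beta pathway genes, 14 were lower and 3 were higher, against 29.4% and 44% of all tested genes.

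Downstream of the receptor, the signal transducer Smad3 had 1.10, 1.04, 0.867 and 1.12 RPKM in BV2 cells, against 9.98 and 9.14 RPKM in microglia. The feedback inhibitors Smad7 and Skil, which the pathway itself induces, were lower too. There were 0.481 to 0.616 RPKM of Smad7 in BV2 cells, against 19.5 and 20.5 in microglia, and 0.403 to 1.00 RPKM of Skil in BV2 cells, against 48.7 and 47.4 in microglia. The common mediator Smad4 was kept, with 5.59 to 6.43 RPKM in BV2 cells, against 8.55 and 8.92. It left the 2-fold interval after quantile normalization and after median-ratio scaling. It then differed by -0.88 (adjusted p = 0.00024, limma) and -0.84 (adjusted p = 0.000243), which passed as lower on both scales. In the colony-stimulating factor axis, 6 of 11 tested genes were lower and 3 were higher, against 29.4% and 44% of all tested genes. The GM-CSF receptor alpha chain gene Csf2ra was the 1 lacked gene of the list, with 0.294, 0.194, 0.083 and 0 RPKM in BV2 cells, against 23 and 20.1 RPKM in microglia. Its beta chain partner Csf2rb was higher, with 23.9, 15.1, 22.2 and 15.8 RPKM in BV2 cells, against 8.80 and 8.44 RPKM in microglia (log2 difference 1.05, SE 0.21, adjusted p = 0.00419), although it shares much of its sequence with Csf2rb2, which was higher too, and reads may be split between them. The call of Csf2rb was lost after quantile normalization (adjusted p = 0.0996) and without the Q175/175 library (adjusted p = 0.0519). Csf1 itself had 16.1, 8.38, 19.4 and 8.47 RPKM in BV2 cells, against 7.50 and 12.8 RPKM in microglia (adjusted p = 0.52), with the higher BV2 values at 24 h, and Il34 had 0.132 to 0.247 RPKM in BV2 cells and was listed at 0 in microglia.

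Most genes of the general macrophage programme were lower in BV2 cells. Among 35 tested pan-macrophage genes, 22 were lower, 6 were higher and 5 were kept, against 29.4%, 44% and 32.7% of all tested genes. Tyrobp, the adaptor through which TREM2 and other receptors signal, had 229, 136, 202 and 153 RPKM in BV2 cells, against 209 and 203 RPKM in microglia, with an interval of -0.76 to 0.32. Laptm5, a lysosomal membrane protein of blood cells, had 240.3, 121, 203 and 126 RPKM in BV2 cells, against 176 and 192 RPKM in microglia, with an interval of -0.90 to 0.59. The platelet and leukocyte protein gene Plek had 136, 87.5, 148 and 95.9 RPKM in BV2 cells, against 85.4 and 93.2 RPKM in microglia. Cyba, a subunit of the phagocyte NADPH oxidase, had 97.7, 75, 101 and 73.7 RPKM in BV2 cells, against 103 and 74.0 RPKM in microglia. Arhgdib, a regulator of small GTPases in blood cells, had 66.4, 87.7, 60.7 and 92.2 RPKM in BV2 cells, against 62.6 and 49.3 RPKM in microglia. In each of these 5 the BV2 and microglia libraries overlapped, and all had an H3K4me2 peak near the start in BV2 cells, as did 88.6% of all tested genes in empty-vector cells. After quantile normalization only Arhgdib of the 5 stayed within 2-fold, and Tyrobp then differed by -1.11 (adjusted p = 0.00176, limma), while after median-ratio scaling Arhgdib and Plek stayed and Tyrobp differed by -0.64 (adjusted p = 0.0786). The F4/80 gene, listed as Emr1, had 65.1, 27.5, 65.3 and 32.3 RPKM in BV2 cells, against 59.9 and 49.9 RPKM in microglia (adjusted p = 0.513). The inhibitory Fc receptor Fcgr2b had 67.3, 31.5, 67.7 and 33.8 RPKM in BV2 cells, against 37.7 and 46.4 RPKM in microglia (adjusted p = 0.704). For both Emr1 and Fcgr2b the 24 h libraries lay above and the second-time libraries below microglia.

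The leukocyte surface genes were lower but present. Itgam, which codes for CD11b, a marker of the sort that the labels describe, had 23.5, 16.4, 23.6 and 17.3 RPKM in BV2 cells, against 94.6 and 68.2 RPKM in microglia (log2 difference -1.96, SE 0.21, adjusted p = 0.000238). Ptprc, which codes for CD45, had 14.6, 13.2, 16.3 and 14.7 RPKM in BV2 cells, against 47.5 and 44.3 RPKM in microglia (log2 difference -1.58, SE 0.12, adjusted p = 3.84e-05). Aif1, which codes for the microglial stain IBA1, was far lower, with 1.98, 1.65, 0.878 and 1.92 RPKM in BV2 cells, against 83.3 and 62.2 RPKM in microglia (log2 difference -4.83, SE 0.23, adjusted p = 5.63e-06). The LPS co-receptor Cd14 had 6.87, 16.7, 7.27 and 18.7 RPKM in BV2 cells, against 103 and 80.4 RPKM in microglia. The efferocytosis receptor Mertk had 4.38, 2.04, 4.55 and 2.57 RPKM in BV2 cells, against 86.3 and 85.7 RPKM in microglia. Among the 6 higher genes, the lysosomal glycoprotein Cd68 had 236, 128, 194 and 165 RPKM in BV2 cells, against 51.0 and 53.9 RPKM in microglia (log2 difference 1.73, SE 0.24, adjusted p = 0.000733), and the lysozyme gene Lyz2 had 592, 470.4, 622 and 566 RPKM in BV2 cells, against 304 and 183 RPKM in microglia. Others were the oxidase subunit gene Cybb, the actin-bundling Lcp1 and the Fc receptor gamma chain gene Fcer1g. The Fcer1g difference of 0.76 turned to -0.24 after quantile normalization, and its call was lost without either 24 h BV2 library (adjusted p = 0.0535 without the empty vector and 0.0545 without the wild-type fragment) or either microglia library (0.193 without Q7/7 and 0.116 without Q175/175).

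Lysosomal genes were split. Of 32 tested, 12 were higher, 9 were lower and 9 were kept, near the 44%, 29.4% and 32.7% of all tested genes. After quantile normalization 3 were higher and 15 lower, so the direction of the list depended on the scaling, and 3 of the 9 kept genes stayed within 2-fold. The cathepsin gene Ctsb had 191, 154, 206 and 177 RPKM in BV2 cells, against 159 and 163 RPKM in microglia, with an interval of -0.17 to 0.50. Psap, the precursor of the saposins that activate sphingolipid hydrolases, had 418, 271, 481 and 273 RPKM in BV2 cells, against 329 and 346 RPKM in microglia. Lamp2 had 68.3, 47.7, 70.9 and 56.1 RPKM in BV2 cells, against 51.1 and 53.7 RPKM in microglia. On the deposited scale, kept genes thus included several of the most abundant lysosomal transcripts. After quantile normalization, however, Ctsb, Psap and Lamp2 all left the 2-fold interval, Ctsb differing by -0.78 (adjusted p = 0.00119, limma). Psap also left it after median-ratio scaling, while Ctsb and Lamp2 stayed. Ctss, the cathepsin of antigen processing, was lower, with 245, 163, 263 and 187 RPKM in BV2 cells, against 1191 and 1290.0 RPKM in microglia (log2 difference -2.55, SE 0.21, adjusted p = 6.74e-05). Ctsd was lower, with 619, 436, 641 and 475 RPKM in BV2 cells, against 1818 and 1756 RPKM in microglia (log2 difference -1.74, SE 0.19, adjusted p = 0.000222). Ctsh was listed at 0 in all 4 BV2 libraries, against 81.4 and 84.6 RPKM in microglia and 46.0 and 41.7 RPKM in macrophages.

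Another cathepsin, Ctsk, the collagen-degrading protease of osteoclasts, was among the genes with the largest differences upward. It had 913, 886, 991 and 940.0 RPKM in BV2 cells, against 0.26 and 0.088 RPKM in microglia, and 7.80 and 6.16 RPKM in macrophages (log2 difference 9.64, SE 0.11, adjusted p = 1.89e-07). Cd63, a tetraspanin of lysosomes and exosomes, had 168, 137, 181 and 139 RPKM in BV2 cells, against 6.14 and 9.42 RPKM in microglia (log2 difference 4.18, SE 0.20, adjusted p = 5.99e-06). The calcium channel of endolysosomes Mcoln3 had 73.9, 51.2, 73.6 and 59.9 RPKM in BV2 cells, against 0.034 and 0 RPKM in microglia. The proton pump subunit Atp6v0d2, another gene of osteoclasts, had 41.2, 14.2, 46.6 and 17.2 RPKM in BV2 cells, against 0.047 and 0.014 RPKM in microglia. These 4 genes were called higher, and the macrophages had 22.3 and 18.2 RPKM of Atp6v0d2 and 2.24 and 2.50 RPKM of Mcoln3.

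Complement genes were mostly lower. The 3 chains of C1q, the recognition molecule of the classical pathway that tags synapses for removal, are made in the brain mainly by microglia. C1qa had 0.083, 0.928, 0 and 1.25 RPKM in BV2 cells, against 939.7 and 779 RPKM in microglia (log2 difference -9.19, SE 0.37, adjusted p = 2.95e-06). C1qb had 15.6, 17.7, 11.1 and 20.6 RPKM in BV2 cells, against 915 and 829.5 RPKM in microglia (log2 difference -5.69, SE 0.23, adjusted p = 3.24e-06). C1qc had 5.49, 6.87, 4.34 and 9.33 RPKM in BV2 cells, against 753 and 703 RPKM in microglia (log2 difference -6.64, SE 0.26, adjusted p = 2.68e-06). All 3 C1q genes were far below microglia in each BV2 library, yet C1qb and C1qc stayed above 4 RPKM, and all 3 had both H3K4me2 and PU.1 peaks near their starts in BV2 cells. In empty-vector cells 88.6% of all tested genes had an H3K4me2 peak in that window and 38.9% a PU.1 peak. Of 12 tested complement genes, 8 were lower and 2 higher, against 29.4% and 44% of all tested genes. The 2 that were higher were properdin (Cfp) and Itgax.

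Among 22 tested phagocytic and scavenger receptors, 11 were lower and 7 were higher, against 29.4% and 44% of all tested genes. The lipid receptor Trem2, a genetic risk locus for Alzheimer's disease, had 47.8, 31.5, 48.8 and 30.2 RPKM in BV2 cells, against 227 and 197 RPKM in microglia (log2 difference -2.42, SE 0.24, adjusted p = 0.000148). The integrin chain Itgb5 had 4.64, 4.26, 3.92 and 3.90 RPKM in BV2 cells, against 172 and 169 RPKM in microglia. The scavenger receptor Stab1 had 0.125, 0.153, 0.134 and 0.149 RPKM in BV2 cells, against 61.7 and 57.0 RPKM in microglia. The checkpoint receptor Havcr2 had 2.32, 1.63, 2.32 and 1.83 RPKM in BV2 cells, against 47.2 and 42.7 RPKM in microglia. The TAM receptor Axl and its ligand Pros1 were listed at 0 in all BV2 libraries, against 3.13 and 7.37 RPKM of Axl and 45.6 and 37.3 RPKM of Pros1 in microglia. In the other direction, the mannose receptor Mrc1 had 80.2, 34.1, 87.4 and 37.1 RPKM in BV2 cells, against 1.93 and 2.05 RPKM in microglia (log2 difference 4.22, SE 0.43, adjusted p = 0.000165). The fatty acid and lipoprotein receptor Cd36 had 44.8, 25.4, 54.3 and 31.6 RPKM in BV2 cells, against 0.431 and 0.247 RPKM in microglia (log2 difference 4.85, SE 0.30, adjusted p = 1.8e-05). The bridging protein Mfge8, which links dying cells to integrins, had 132, 89.4, 125 and 92.2 RPKM in BV2 cells, against 3.39 and 3.21 RPKM in microglia (log2 difference 4.66, SE 0.19, adjusted p = 3.49e-06). Both Mrc1 and Cd36 were also expressed in the macrophages, with 75.7 and 72.1 RPKM of Mrc1 and 322 and 435 RPKM of Cd36.

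Genes that microglia induce around plaques, in demyelination or with age were split, with some of the largest differences upward among them. Of 25 tested damage-associated genes, 13 were higher, 8 of them at least 4-fold against 12.5% of all tested genes, 6 were lower and 4 were kept. Of all tested genes, 44% were higher, 29.4% lower and 32.7% kept. After quantile normalization the list counted 10 higher and 10 lower, and its median turned from 0.31 to -0.18, so the list had no direction that held across scalings. Of its 4 kept genes, 1 stayed within 2-fold then. Osteopontin (Spp1), a secreted phosphoprotein, had 2377, 2158, 2670.5 and 2318 RPKM in BV2 cells, against 8.81 and 7.44 RPKM in microglia (log2 difference 8.03, SE 0.13, adjusted p = 1.89e-07). Gpnmb, a glycoprotein of foamy macrophages, had 998, 514, 1060.5 and 575 RPKM in BV2 cells, against 1.37 and 0.762 RPKM in microglia (log2 difference 8.52, SE 0.35, adjusted p = 3.15e-06). Macrophages had 1141 and 1085 RPKM of Spp1 and 1052 and 1283 RPKM of Gpnmb, so both genes were high there too.

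Several lipid handling genes were among the higher ones. The lipoprotein lipase gene Lpl had 74.3, 73.2, 86.3 and 73.7 RPKM in BV2 cells, against 2.42 and 2.13 RPKM in microglia (log2 difference 4.57, SE 0.12, adjusted p = 5.65e-07). The fatty acid-binding protein gene Fabp5 had 199, 162, 182 and 173 RPKM in BV2 cells, against 0.804 and 0.773 RPKM in microglia (log2 difference 6.65, SE 0.12, adjusted p = 2.11e-07). Its relative Fabp4, known from adipocytes and foamy macrophages, had 78.7, 30.2, 91.5 and 34.6 RPKM in BV2 cells, against 0.276 and 0.055 RPKM in microglia. The beta-galactoside-binding lectin Lgals3 had 232, 139, 212 and 143 RPKM in BV2 cells, against 5.57 and 3.33 RPKM in microglia (log2 difference 5.06, SE 0.28, adjusted p = 1.13e-05). The growth factor Igf1, which microglia make in development, had 40.7, 18.4, 37.1 and 20.1 RPKM in BV2 cells, against 0.135 and 0.386 RPKM in microglia. In each of these the 4 BV2 libraries lay above both microglia libraries, and Lpl was higher still in macrophages, at 718 and 740.0 RPKM. Apoe, the main lipid carrier of the brain, had 1098, 536, 1104 and 524 RPKM in BV2 cells, against 187 and 479 RPKM in microglia (log2 difference 1.35, SE 0.50, adjusted p = 0.045), with the 2 microglia libraries far apart and the second-time BV2 libraries close to the higher of them. The call of Apoe was lost without the Q7/7 microglia library (adjusted p = 0.367), without the empty vector at 24 h (adjusted p = 0.0824) and without the wild-type fragment at 24 h (adjusted p = 0.0811). Itgax, which codes for CD11c, had 44.4, 18.4, 49.3 and 20.7 RPKM in BV2 cells, against 4.19 and 3.91 RPKM in microglia (log2 difference 2.63, SE 0.43, adjusted p = 0.00159). On the other side of the list, Trem2, Ctsd, Ccl6, Cd52, Axl and Timp2 were lower in BV2 cells, Timp2 with an adjusted p of 0.0728 without the Q175/175 library, and Tyrobp, Cd9, Ctsb and Ctsz were kept. The beta-glucan receptor Clec7a did not pass the test (adjusted p = 0.587).

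Among genes of alternative activation, induced in macrophages by IL-4 or lactate, some were higher and some lower, and several depended on the BV2 time. The arginase gene Arg1 had 189.7, 22.5, 234 and 20.3 RPKM in BV2 cells, against 0.517 and 0.403 RPKM in microglia (log2 difference 5.56, SE 1.12, adjusted p = 0.00408), and it was listed at 0 in macrophages. The lectin Clec10a had 28.6, 10.8, 21.3 and 10.4 RPKM in BV2 cells, against 0.157 and 0.328 RPKM in microglia (log2 difference 3.80, SE 0.42, adjusted p = 0.000247). The chitinase-like Chil3 was lower, with 7.13, 0.795, 12.1 and 1.34 RPKM in BV2 cells, against 67.4 and 19.1 RPKM in microglia (log2 difference -3.01, SE 0.93, adjusted p = 0.0241). So was the IL-4 receptor alpha chain gene Il4ra, with 1.29, 1.24, 1.12 and 1.18 RPKM in BV2 cells, against 23.1 and 18.9 RPKM in microglia (log2 difference -3.31, SE 0.12, adjusted p = 1.81e-06). For Arg1, Chil3 and Mrc1, both constructs gave their higher values at 24 h. In microglia, Chil3 was higher in the Q7/7 library, as was the sum of 13 neutrophil markers (1878 and 631 RPKM). What neutrophil RNA contributed to Chil3 was not tested. The calls of Arg1 and Chil3 were lost when a microglia library was left out, with adjusted p of 0.056 without Q7/7 and 0.0592 without Q175/175 for Arg1, and 0.227 and 0.0658 for Chil3. Of 9 tested genes of this list, 3 were higher and 4 were lower, against 44% and 29.4% of all tested genes.

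Pattern recognition genes were mostly lower. Of 35 tested genes of Toll-like receptors and NF-kB signalling, 27 were lower, 1 was higher and 12 were kept, with a median of -0.92. Among all tested genes the shares were 29.4%, 44% and 32.7%, so the kept share was near that of all. The LPS receptor Tlr4 was kept, although called lower, with 13.5, 15.0, 14.4 and 16.3 RPKM in BV2 cells, against 24.4 and 22.5 RPKM in microglia. Its homologue Cd180 and the TLR2 partners Tlr1 and Tlr6 were kept too, although 6 of the 12 kept genes fell outside 2-fold after quantile normalization, where Tlr4 differed by -1.30. Tlr2 was lower, with 3.56, 4.91, 2.88 and 5.93 RPKM in BV2 cells, against 36.3 and 37.4 RPKM in microglia (log2 difference -2.87, SE 0.24, adjusted p = 6.82e-05), and the double-stranded RNA receptor Tlr3 was low, at 0.229 to 0.329 RPKM in BV2 cells, against 7.26 and 7.44 in microglia. The adaptor Myd88 had 4.41, 9.97, 5.20 and 10.2 RPKM in BV2 cells, against 9.95 and 10.1 RPKM in microglia (adjusted p = 0.257). Nfkbia and Nfkbiz, NF-kB inhibitors that the pathway induces, were lower. There were 1.93 to 3.37 RPKM of Nfkbia in BV2 cells, against 93.2 and 94.9 in microglia, and 0.909 to 1.24 RPKM of Nfkbiz in BV2 cells, against 119 and 143 in microglia. The inflammasome adaptor Pycard, which codes for ASC, was listed at 0 in all 4 BV2 libraries, against 28.3 and 20.7 RPKM in microglia and 19.4 and 23.8 RPKM in macrophages.

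Cytokine and chemokine transcripts of unstimulated cells were mostly lower in the line. Of 22 tested, 16 were lower, 12 of them at least 4-fold, and 3 were higher, against 29.4%, 6.79% and 44% of all tested genes. Tnf had 1.85, 3.30, 3.04 and 3.11 RPKM in BV2 cells, against 25.9 and 40.1 RPKM in microglia (log2 difference -3.14, SE 0.24, adjusted p = 4.21e-05). Il1a had 4.49, 1.78, 5.60 and 2.09 RPKM in BV2 cells, against 68.9 and 91.2 RPKM in microglia (log2 difference -4.26, SE 0.39, adjusted p = 0.000101). The macrophage inflammatory protein gene Ccl4 had 6.45, 9.59, 6.49 and 13.6 RPKM in BV2 cells, against 415 and 484 RPKM in microglia (log2 difference -5.54, SE 0.30, adjusted p = 9.44e-06). Ccl12, a ligand of CCR2, had 2.20, 0.806, 2.00 and 2.08 RPKM in BV2 cells, against 217 and 159 RPKM in microglia (log2 difference -6.11, SE 0.27, adjusted p = 4.55e-06), and Il6 was listed at 0 in BV2 cells, against 5.00 and 3.80 RPKM. These are products that microglia can also induce while they are being isolated, and the immediate-early genes described further on were high in the same 2 microglia libraries, but the part of isolation in these differences was not tested. The 3 higher genes were the angiogenic factor Vegfa, the chemokine Ccl7 and the nitric oxide synthase Nos2. Vegfa had 11.7, 6.74, 11.9 and 6.52 RPKM in BV2 cells, against 0.338 and 0.252 RPKM in microglia (log2 difference 2.93, SE 0.27, adjusted p = 0.000113). The call of Ccl7 was lost after quantile normalization (adjusted p = 0.176), without the empty vector at 24 h (0.0569) and without the Q7/7 (0.0921) or the Q175/175 library (0.219). Nos2 had 0.541 to 1.98 RPKM in BV2 cells and was listed at 0 in microglia, with an adjusted p of 0.0875 without the Q7/7 library and 0.0885 without Q175/175.

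Interferon-stimulated genes were low on both sides, and lower in BV2 cells. Of 25 tested, 19 were lower and 2 were higher, against 29.4% and 44% of all tested genes. The gene of the RNA sensor MDA5, Ifih1, was listed at 0 in BV2 cells, against 4.40 and 5.45 RPKM in microglia. Ddx58, which codes for the sensor RIG-I, had 0.073 to 0.16 RPKM in BV2 cells, against 5.25 and 6.27 in microglia. Irf9, a subunit of the factor that transmits the interferon signal, had 1.04, 0.796, 1.14 and 0.812 RPKM in BV2 cells, against 12.8 and 15.3 RPKM in microglia (log2 difference -2.95, SE 0.13, adjusted p = 4.53e-06). The 2 higher genes were Ifitm3, with 10.5, 11.2, 11.3 and 11 RPKM in BV2 cells, against 3.53 and 3.89 RPKM in microglia, and Oasl1, with 4.25, 2.26, 4.20 and 1.90 RPKM in BV2 cells, against 0.469 and 0.657 RPKM in microglia, whose call was lost without the Q7/7 library (adjusted p = 0.0649). The list summed to 93.9, 56.0, 96.8 and 54.8 RPKM in BV2 cells, against 120.5 and 176 in microglia, and to 1102 and 1251 in macrophages, which had more of this programme.

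Antigen presentation genes of class I were closer than those of class II. The class I light chain gene B2m had 538, 281, 602 and 367 RPKM in BV2 cells, against 391 and 604 RPKM in microglia, with an adjusted p of 0.651. Of the heavy chain genes, which are similar in sequence, H2-D1 had 79.0, 49.2, 89.4 and 53.7 RPKM in BV2 cells, against 101 and 132 RPKM in microglia, and H2-K1 had 54.5, 29.4, 56.8 and 31.7 RPKM in BV2 cells, against 110.1 and 121 RPKM in microglia. Both were called lower. The call of H2-D1 was lost without either second-time BV2 library (adjusted p = 0.0558 without the empty vector and 0.0701 without the wild-type fragment) or either microglia library (0.0983 without Q7/7 and 0.248 without Q175/175), and that of H2-K1 without either microglia library (0.0521 and 0.0659). The immunoproteasome subunits Psmb8 and Psmb10 were kept. Psmb8 stayed within 2-fold after quantile normalization and after median-ratio scaling. Psmb10 did not, differing then by -1.09 (adjusted p = 0.00068, limma) and -0.93 (adjusted p = 0.00172), so it passed as lower on both scales. For class II, the structural genes H2-Aa, H2-Ab1 and H2-Eb1 were listed at 0 in all 4 BV2 libraries and low in microglia, with 6.67 and 6.32 RPKM of H2-Aa, 6.82 and 5.78 RPKM of H2-Ab1 and 3.44 and 2.64 RPKM of H2-Eb1. The invariant chain Cd74 was an exception, with 81.4, 25.9, 72.7 and 26.1 RPKM in BV2 cells, against 29.4 and 27.5 RPKM in microglia (adjusted p = 0.311), the 24 h libraries lying above both microglia libraries and the second-time libraries just below. The peptide editor H2-DMa had 0.381, 0.389, 0.23 and 0.574 RPKM in BV2 cells, against 17.4 and 18.8 RPKM in microglia (log2 difference -3.78, SE 0.13, adjusted p = 1.58e-06). The costimulatory molecules Cd86 and Icosl were lower, with 3.66 to 5.09 RPKM of Cd86 in BV2 cells, against 38.4 and 34.3 in microglia, and 0.499 to 0.749 RPKM of Icosl in BV2 cells, against 22.9 and 21.9 in microglia.

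Immediate-early genes, which cells switch on within minutes of a stimulus, were far lower in BV2 cells. Of 25 tested, 24 were lower in BV2 cells, 20 of them at least 4-fold, against 29.4% and 6.79% of all tested genes, with a median of -4.36. Fos had 1.55, 2.02, 1.38 and 2.04 RPKM in BV2 cells, against 586 and 635 RPKM in microglia (log2 difference -7.80, SE 0.14, adjusted p = 2.41e-07). The phosphatase Dusp1 had 0.511, 0.664, 0.824 and 0.856 RPKM in BV2 cells, against 296 and 315 RPKM in microglia (log2 difference -7.49, SE 0.12, adjusted p = 1.89e-07). The small GTPase Rhob had 6.95, 7.67, 8.26 and 7.35 RPKM in BV2 cells, against 743 and 681 RPKM in microglia (log2 difference -6.38, SE 0.11, adjusted p = 2.11e-07). Junb had 6.90, 8.00, 6.78 and 7.61 RPKM in BV2 cells, against 534 and 566 RPKM in microglia. Btg2, an antiproliferative gene, had 1.67, 1.39, 1.75 and 1.54 RPKM in BV2 cells, against 362 and 349 RPKM in microglia. The list summed to 169.7, 123, 181 and 122 RPKM in BV2 cells, against 4643 and 4723 in microglia and 539 and 494 in macrophages, so the microglia libraries stood above both other cell types. The kept members were Fosl2 and Gadd45b, with 6.20 to 8.71 RPKM of Gadd45b in BV2 cells, against 5.44 and 7.04 in microglia. Fosl2 left the 2-fold interval after quantile normalization and after median-ratio scaling, differing by -0.77 and -0.86, while Gadd45b stayed. The stress-inducible chaperones were lower as well, with 1.23 to 1.72 RPKM of Hspa1a in BV2 cells, against 74.5 and 45.7 in microglia, whose reads may not be told from those of its near-identical copy Hspa1b, and 3.63 to 7.80 RPKM of Dnajb1 in BV2 cells, against 131 and 98.2 in microglia. In contrast, the constitutive chaperones Hspa8 (log2 difference 2.61) and Hspd1 (log2 difference 4.63) were higher in BV2 cells. Their list held 22 tested chaperone genes, of which 13 were higher and 5 lower, against 44% and 29.4% of all tested genes. Immediate-early and stress genes are known to respond to tissue dissociation, and what the isolation of microglia contributed was not tested.

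The proliferation genes went the other way. Of 44 tested genes of mitosis, 38 were higher in BV2 cells, 23 of them at least 4-fold, and none was lower. The shares of all tested genes were 44%, 12.5% and 29.4%. The list summed to 171, 649, 150.1 and 621 RPKM in BV2 cells, against 42.6 and 29.6 in microglia, and macrophages had 799.7 and 965. The mean sum was 3.96 times as high at the second BV2 time as at 24 h, and even the lowest BV2 library was above both microglia libraries. Ccnb1, which codes for cyclin B1, had 13.4, 50.1, 10.9 and 49.0 RPKM in BV2 cells, against 0.291 and 0.121 RPKM in microglia (log2 difference 4.42, SE 0.68, adjusted p = 0.00119). The ubiquitin-conjugating enzyme of the anaphase Ube2c had 7.70, 28.6, 7.08 and 29.0 RPKM in BV2 cells, against 0.379 and 0.226 RPKM in microglia (log2 difference 3.60, SE 0.64, adjusted p = 0.00224). The proliferation marker Mki67 had 7.06, 26.2, 5.22 and 26.3 RPKM in BV2 cells, against 1.20 and 0.729 RPKM in microglia (log2 difference 2.83, SE 0.68, adjusted p = 0.00897). Without 1 microglia library the adjusted p of Mki67 was 0.0753 (Q7/7 left out) or 0.101 (Q175/175 left out). Macrophages had 61.4 and 66.3 RPKM of Mki67, more than any BV2 library.

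DNA replication followed with smaller differences. Of 39 tested genes, 23 were higher and none was lower, against 44% and 29.4% of all tested genes, with a median of 1.48. With the 24 h libraries only, 29 were higher and 2 were lower, with a median of 0.81, and with the second-time libraries only all 39 were higher, with a median of 2.28. The list summed to 197, 622, 179 and 607 RPKM in BV2 cells, against 107 and 91.9 in microglia. The replicative helicase subunit Mcm7 had 11.5, 36.7, 9.99 and 36.9 RPKM in BV2 cells, against 1.97 and 1.34 RPKM in microglia (log2 difference 2.99, SE 0.59, adjusted p = 0.00386). The licensing factor Cdt1 had 14.5, 21.9, 13.6 and 21.7 RPKM in BV2 cells, against 1.06 and 1.26 RPKM in microglia (log2 difference 3.10, SE 0.23, adjusted p = 3.78e-05). The call of Mcm7 was lost without the Q175/175 library (adjusted p = 0.0624). Mcm3 did not pass the test (adjusted p = 0.179), its 24 h BV2 libraries being at the level of microglia, with 6.78, 33.4, 6.89 and 33.1 RPKM in BV2 cells, against 7.14 and 5.11 RPKM in microglia. The clamp gene Pcna did not either, with 32.0, 106, 34.9 and 108 RPKM in BV2 cells, against 33.4 and 34.3 RPKM in microglia (adjusted p = 0.24). For both genes the second-time BV2 libraries lay far above microglia and the 24 h libraries near them.

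**Figure D3:**
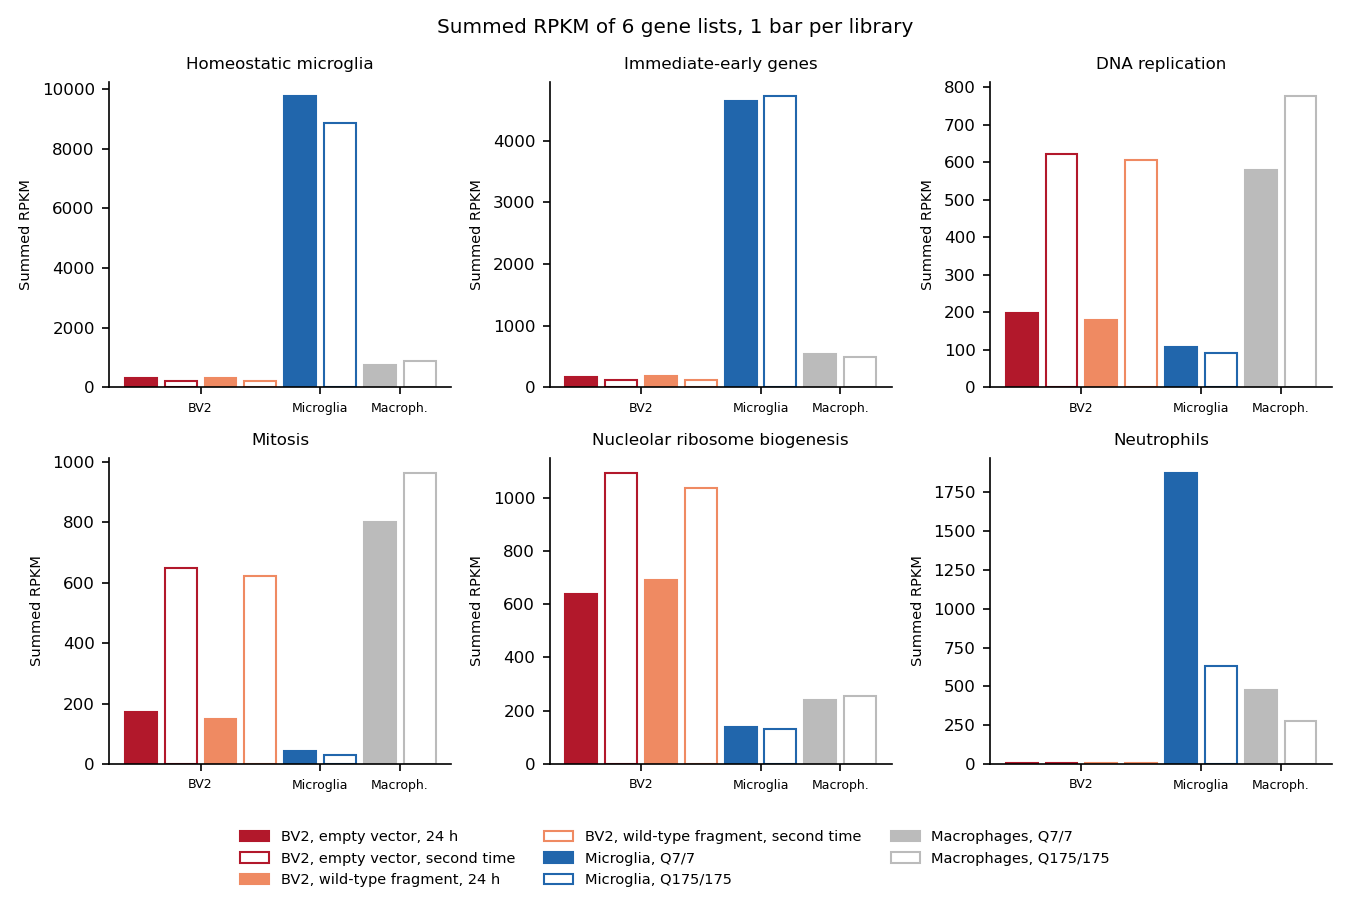
Summed RPKM (vertical axes, from 0) of 6 gene lists in each library, with 1 bar for each of the 4 BV2, 2 microglia and 2 macrophage libraries. Homeostatic, immediate-early and neutrophil genes are highest in microglia, while mitosis sums to 150 to 649 in BV2 cells, against 42.6 and 29.6 in microglia, with the second-time BV2 libraries above the 24 h ones.

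Promoters of mitotic genes are known to share CCAAT boxes, bound by NF-Y, and a cell cycle homology element with the letters TTTGAA, through which they are repressed in resting cells. In the RefSeq promoters on GRCm38.p6, available for 37 of the 44 mitosis genes, CCAAT (on either strand) stood in 30 of 40 promoters (75%) and TTTGAA in 32 (80%), against 37.4% and 17.9% of all 32851 promoters in the reference table. DNA replication genes had CCAAT in 24 of 39 promoters (61.5%) and TTTGAA in 6 (15.4%). Ccnb1 and Cdc20, an activator of the anaphase-promoting complex, are shown as mitotic genes under 1 RPKM in both microglia libraries, with both motifs in capitals on the strand printed.
Ccnb1 (chr13:100786437-100786736, minus strand): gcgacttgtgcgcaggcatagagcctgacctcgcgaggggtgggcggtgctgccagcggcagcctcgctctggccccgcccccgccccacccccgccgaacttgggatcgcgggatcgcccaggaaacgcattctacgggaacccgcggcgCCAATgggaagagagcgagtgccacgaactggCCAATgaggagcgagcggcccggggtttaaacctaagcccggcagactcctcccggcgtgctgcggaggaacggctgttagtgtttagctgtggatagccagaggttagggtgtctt
Cdc20 (chr4:118437294-118437593, minus strand): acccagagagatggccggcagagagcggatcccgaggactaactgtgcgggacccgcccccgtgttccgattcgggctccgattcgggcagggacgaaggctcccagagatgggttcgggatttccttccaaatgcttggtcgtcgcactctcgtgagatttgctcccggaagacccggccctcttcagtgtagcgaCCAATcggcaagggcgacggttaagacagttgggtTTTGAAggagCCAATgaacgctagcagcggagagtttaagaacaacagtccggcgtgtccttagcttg
Both windows held CCAAT 2 times, and Cdc20 also held TTTGAA once. Cdc20 had 2.49, 17.7, 2.74 and 15.5 RPKM in BV2 cells, against 0.741 and 0.53 RPKM in microglia (log2 difference 2.29, SE 0.79, adjusted p = 0.0362), and its call was lost when a second-time BV2 library (adjusted p = 0.0515 and 0.0635) or a microglia library (0.172 and 0.202) was left out.

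Of 33 tested genes that set the cell cycle pace, 12 were higher and 11 lower, against 44% and 29.4% of all tested genes. Without genes that have copies or named pseudogenes, Ccnd3 among them, 9 of 30 were higher and 11 lower. Cdk4 and its partner Ccnd3 were higher, with 55.8 to 81.6 RPKM of Cdk4 in BV2 cells, against 10.5 and 9.13 in microglia, and 19.3 to 23.4 RPKM of Ccnd3 in BV2 cells, against 3.49 and 2.86 in microglia, while Ccnd1 was kept. Cdkn1a, the p21 gene, was higher, with 45.6, 32.3, 47.5 and 33.5 RPKM in BV2 cells, against 1.82 and 2.59 RPKM in microglia (log2 difference 3.66, SE 0.21, adjusted p = 1.26e-05). Cdkn1b, the p27 gene, was lower, with 2.88, 2.29, 2.40 and 2.86 RPKM in BV2 cells, against 14.0 and 12.7 RPKM in microglia. Cdkn2a and Cdkn2b, the INK4 tumour suppressor genes, were listed at 0 in all 4 BV2 libraries and near 0 in microglia, with 0.095 and 0.075 RPKM of Cdkn2a and 0.063 and 0.2 RPKM of Cdkn2b, so no difference was detectable there. Endogenous Myc had 0.338, 0.209, 0.444 and 0.198 RPKM in BV2 cells, against 8.32 and 6.20 RPKM in microglia (log2 difference -2.66, SE 0.15, adjusted p = 1.13e-05) in a line that carries v-myc, whose own transcript was not analysed here.

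Transcripts around the RAF-ERK pathway, which v-raf activates, had no common direction. Of 28 tested, 11 were higher and 10 were lower, near the 44% and 29.4% of all tested genes. Dusp4, a nuclear ERK phosphatase, had 58.9, 26.6, 59.3 and 30.9 RPKM in BV2 cells, against 0.337 and 0.416 RPKM in microglia (log2 difference 4.94, SE 0.36, adjusted p = 3.86e-05). Fosl1, the FRA1 gene and a target of sustained ERK activity, had 5.40, 4.58, 5.18 and 4.27 RPKM in BV2 cells, against 0.052 and 0.02 RPKM in microglia (log2 difference 2.50, SE 0.12, adjusted p = 5.98e-06). In contrast, Dusp6, the cytoplasmic ERK phosphatase, had 2.67, 2.68, 3.13 and 3.82 RPKM in BV2 cells, against 182 and 211 RPKM in microglia (log2 difference -5.60, SE 0.15, adjusted p = 6.83e-07), and the inhibitor Spry1 was listed at 0 in BV2 cells, against 4.71 and 5.22 RPKM. Araf and Braf were kept, with 2.85, 2.44, 2.99 and 3.13 RPKM of Braf in BV2 cells, against 2.21 and 2.45 in microglia.

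Biosynthetic genes were higher in BV2 cells as groups, where 44% of all tested genes were higher and 29.4% lower. For nucleolar ribosome biogenesis, 30 of 34 tested genes were higher and none was lower, with a median of 1.59, and for nucleotide and one-carbon synthesis 19 of 26 were higher and none lower. The nucleolar protein Ncl had 36.7, 95.1, 43.4 and 78.3 RPKM in BV2 cells, against 6.63 and 7.07 RPKM in microglia (log2 difference 2.93, SE 0.40, adjusted p = 0.000648), and the rRNA methyltransferase fibrillarin (Fbl) had 22.9, 47.3, 20.8 and 37.5 RPKM in BV2 cells, against 0.457 and 0.666 RPKM in microglia (log2 difference 4.33, SE 0.34, adjusted p = 5.19e-05). Phgdh, the entry enzyme of serine synthesis, had 96.6, 133, 93.1 and 129 RPKM in BV2 cells, against 3.33 and 3.20 RPKM in microglia (log2 difference 4.72, SE 0.18, adjusted p = 2.62e-06). Impdh2, the rate-limiting enzyme of guanine nucleotide synthesis, had 53.4, 66.9, 47.6 and 72.6 RPKM in BV2 cells, against 1.18 and 1.21 RPKM in microglia (log2 difference 4.78, SE 0.19, adjusted p = 2.8e-06). Of 15 tested genes of the integrated stress response and amino acid transport, 10 were higher, among them the asparagine synthetase gene Asns, with 19.0, 29.3, 23 and 35.6 RPKM in BV2 cells, against 0.656 and 0.236 RPKM in microglia (log2 difference 4.24, SE 0.26, adjusted p = 1.79e-05). The glutamine transporter gene Slc1a5 had 24.3, 29.6, 23.5 and 28.0 RPKM in BV2 cells, against 0.945 and 0.974 RPKM in microglia. Atf4 itself was lower, with 49.9, 72.8, 59.7 and 61.5 RPKM in BV2 cells, against 128 and 106 RPKM in microglia (log2 difference -0.94, SE 0.17, adjusted p = 0.00272).

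Energy metabolism and lipid synthesis were mostly higher too. For comparison, 44% of all tested genes were higher, 12.5% at least 4-fold higher and 29.4% lower. All 36 tested respiratory chain genes were higher in BV2 cells, 18 of them at least 4-fold, with a median of 2.05, and the cytochrome c gene Cycs had 12.8, 29.8, 14.8 and 31.0 RPKM in BV2 cells, against 1.19 and 0.763 RPKM in microglia (log2 difference 3.45, SE 0.39, adjusted p = 0.000285). In glycolysis, 21 of 29 were higher and 5 were lower. The lactate dehydrogenase gene Ldha had 408, 389, 378 and 391 RPKM in BV2 cells, against 11.1 and 9.70 RPKM in microglia (log2 difference 5.11, SE 0.10, adjusted p = 3.07e-07), whereas Ldhb was listed at 0 in BV2 cells, against 29.8 and 27.7 RPKM. The glucose transporter gene Slc2a3 was lower, with 0 to 0.096 RPKM in BV2 cells, against 3.54 and 2.61. The inducible hexokinase gene Hk2 was lower as well, with 12.4, 10.5, 10.5 and 10.8 RPKM in BV2 cells, against 26.1 and 23.6 RPKM in microglia. In cholesterol synthesis and export, 20 of 24 were higher, and the squalene epoxidase gene Sqle had 18.8, 27.8, 17.1 and 27.9 RPKM in BV2 cells, against 0.16 and 0.076 RPKM in microglia (log2 difference 4.39, SE 0.23, adjusted p = 8.9e-06). The cholesterol exporter Abca1 was lower, with 12.4, 11.3, 14.1 and 13.1 RPKM in BV2 cells, against 45.1 and 56.1 RPKM in microglia (log2 difference -1.91, SE 0.14, adjusted p = 3.59e-05). Of 19 tested NRF2 targets, 14 were higher, led by the ferritin genes, where Fth1 had 2749, 2295, 3062 and 2557 RPKM in BV2 cells, against 86.1 and 114 RPKM in microglia (log2 difference 4.73, SE 0.17, adjusted p = 1.95e-06). The haem oxygenase gene Hmox1 had 104, 66.4, 92.8 and 70.5 RPKM in BV2 cells, against 7.61 and 13.2 RPKM in microglia.

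Among the 12 genes with the largest differences upward, 5 were cytosolic ribosomal protein genes and 1 was a ribosomal pseudogene. All 59 tested cytosolic ribosomal protein genes were higher in BV2 cells, 55 of them at least 4-fold, against 44% and 12.5% of all tested genes. Their median was 5.01, and of the 55 that were at least 4-fold higher, 32 had 5 RPKM or more in both macrophage libraries. Rpl19 had 335, 339, 357 and 305 RPKM in BV2 cells, against 0.759 and 0.619 RPKM in microglia. Macrophages had 0.634 and 0.688 RPKM. Pgk1, a glycolytic enzyme with a processed pseudogene family, had 289, 235, 317 and 227 RPKM in BV2 cells, against 0.424 and 0.408 RPKM in microglia, and 1.26 and 3.36 RPKM in macrophages, and the cyclophilin gene Ppia had 364, 464, 366 and 513 RPKM in BV2 cells, against 1.32 and 0.906 RPKM in microglia, and 1.45 and 3.24 in macrophages. No source used here says how reads that match several places were counted, and what this contributed to the differences was not tested.

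Genes with a named RefSeq pseudogene, with more than 1 copy in the table or named as pseudogenes made up 476 of the tested genes, and 278 of these (58.4%) were at least 4-fold higher in BV2 cells, against 1073 of the 10336 genes without such a copy (10.4%). Of the 203 gained genes, 59 had one. Without them, 13 ribosomal protein genes remained, all higher, with a median of 2.93, the glycolysis median went from 2.93 to 2.22 and the heat shock median from 1.67 to 0.52. The medians of the nucleolar genes (1.58), the respiratory chain (2.00) and DNA replication (1.58) without them stayed close to those given above. The mitochondrial leucyl-tRNA synthetase gene Lars2 had the largest difference upward, with 2291, 2219, 2290.2 and 2266 RPKM in BV2 cells, against 1.16 and 2.67 RPKM in microglia (log2 difference 9.65, SE 0.21, adjusted p = 3.61e-07). Macrophages had 64.6 and 9.30 RPKM.

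Genes of the cytoskeleton, galectins and S100 proteins, which are high in adherent cells, were higher in BV2 cells. Of 26 tested, 24 were higher and none was lower, against 44% and 29.4% of all tested genes. The intermediate filament vimentin (Vim) had 1251, 521, 1197 and 537 RPKM in BV2 cells, against 12.9 and 5.15 RPKM in microglia (log2 difference 6.45, SE 0.51, adjusted p = 5.31e-05). The alpha-tubulin Tuba1b had 274, 534, 233 and 540.2 RPKM in BV2 cells, against 5.23 and 4.20 RPKM in microglia (log2 difference 6.02, SE 0.39, adjusted p = 2.2e-05). The lectin Lgals1 had 260.1, 177, 229 and 205 RPKM in BV2 cells, against 2.54 and 1.75 RPKM in microglia (log2 difference 6.12, SE 0.19, adjusted p = 1.15e-06). The S100 protein S100a11 had 83.3, 61.6, 75.6 and 81.1 RPKM in BV2 cells, against 0.409 and 0.209 RPKM in microglia. Macrophages had 1675 and 1619 RPKM of Vim and 272 and 407 RPKM of Lgals1, at or above every BV2 library. Beta-actin (Actb) was kept, with 543, 865, 500.3 and 922 RPKM in BV2 cells, against 692 and 619 RPKM in microglia, and so was the non-muscle myosin Myh9, with 17.4 to 20.1 RPKM in BV2 cells, against 20.0 and 20.4. Both left the 2-fold interval after quantile normalization and stayed within it after median-ratio scaling. The actin bundler Fscn1 was lacked, with 0.027 to 0.114 RPKM in BV2 cells, against 40.1 and 38.1.

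**Figure D4:**
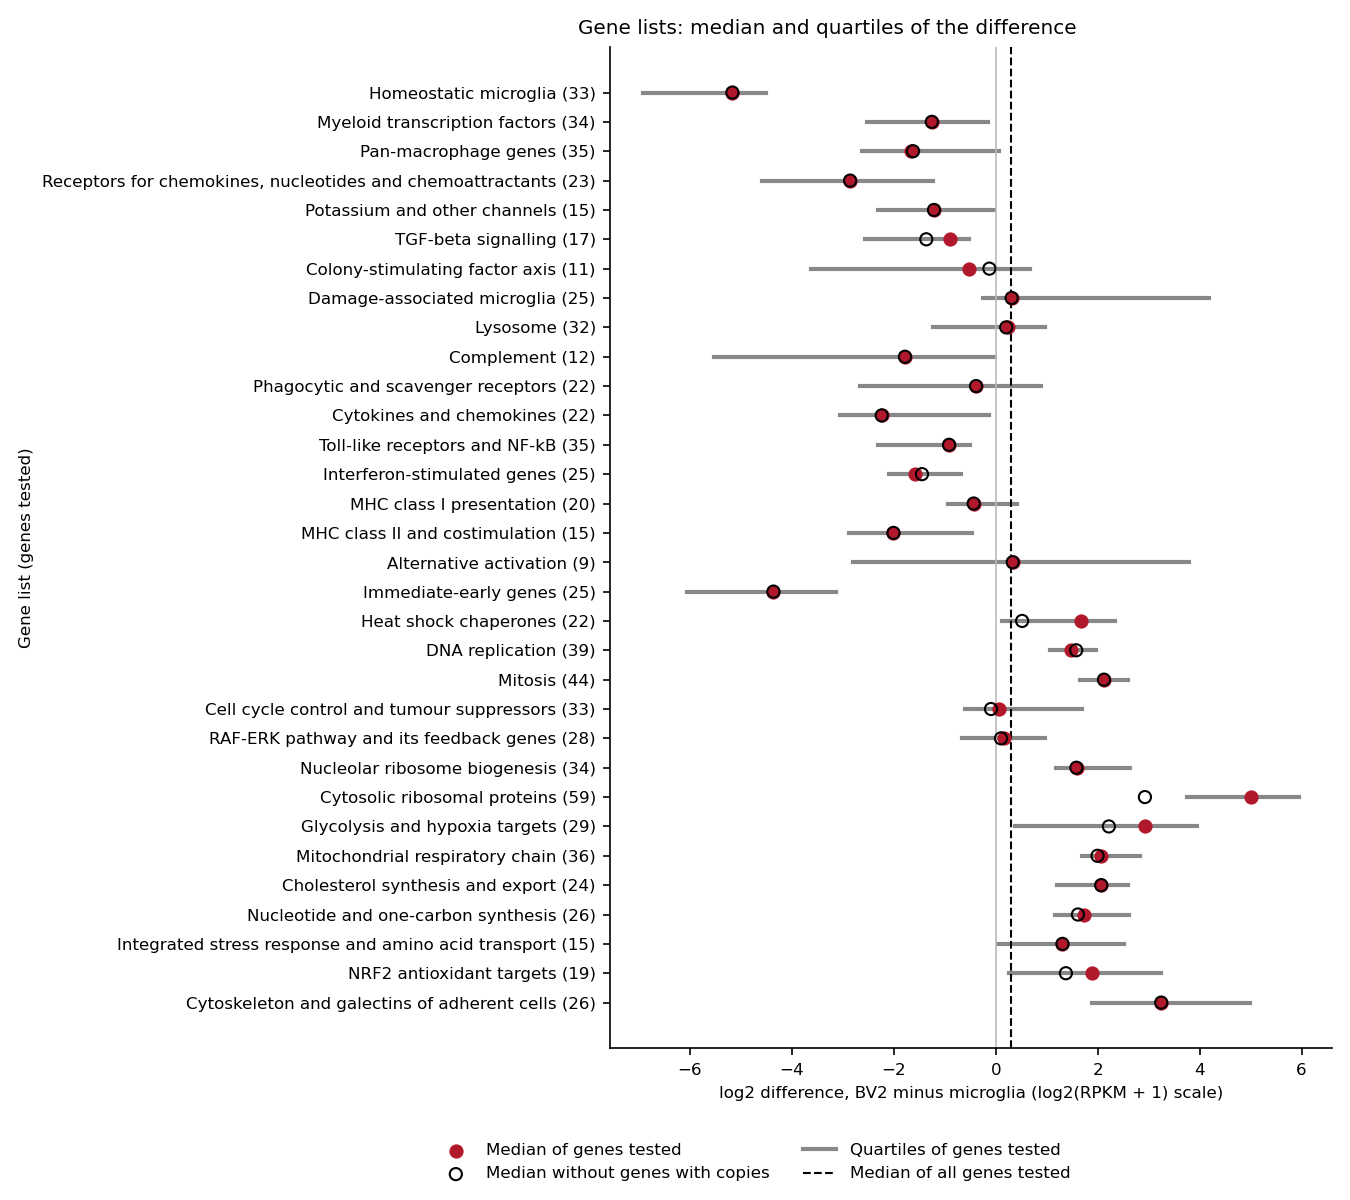
Median (filled) and quartiles (line) of the log2 difference, BV2 minus microglia (horizontal axis), for each gene list other than the markers of other cell types, with its number of genes tested (vertical axis), open circles giving the median without genes that have copies and the dashed line the median of all tested genes, 0.31. Homeostatic and immediate-early genes lie farthest to the left, at -5.17 and -4.36, and ribosomal protein and cytoskeleton genes farthest to the right, at 5.01 and 3.25.

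Markers of other cell types gave a mixed picture, with neutrophil genes in the microglia libraries. Of 8 tested markers of border-associated macrophages, 4 were higher in BV2 cells, a share near the 44% of all tested genes, and Stab1, given above, was lower and lacked. The 4 were Mrc1, the platelet factor gene Pf4, with 64.5, 42.4, 67.9 and 44.1 RPKM in BV2 cells, against 0.901 and 0.954 RPKM in microglia (log2 difference 4.82, SE 0.23, adjusted p = 5.59e-06), Dab2, with 41.3, 53.3, 44.1 and 56.4 RPKM in BV2 cells, against 1.04 and 1.02 RPKM in microglia, and Siglec1, with 6.84, 3.96, 6.38 and 4.14 RPKM in BV2 cells, against 0.481 and 0.688 RPKM in microglia. Their defining markers Cd163 and Lyve1 were at or near 0 on both sides. Of the neutrophil genes, S100a8 had 0.785 to 2.58 RPKM in BV2 cells, against 816 and 252 in microglia. Of the 13 tested, 12 were lower, S100a9 with 692 and 217 RPKM in microglia and Camp with 124 and 40.2 RPKM, the Q7/7 library being the higher each time. Monocyte markers were lower in 6 of 7 tested, Ly6c2 and Ccr2 being listed at 0 in BV2 cells. Among all tested genes, 29.4% were lower. What neutrophil or monocyte RNA contributed to other genes of the microglia libraries was not tested.

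The markers Gfap of astrocytes, Mog of oligodendrocytes, Cldn5 of endothelium and Col1a1 of fibroblasts were under 0.1 RPKM in both microglia libraries and listed at 0 in BV2 cells. Neuronal Snap25 had 0.263 and 0.115 RPKM in microglia. Whole marker lists were not all that low. In microglia, oligodendrocyte markers summed to 13.9 and 13.9 RPKM, against 4.19 to 5.07 in BV2 cells, and all 3 tested were lower in BV2 cells. Erythroid markers summed to 9.80 and 13.3, against 0.514 to 0.647, and both tested were lower. Sums in microglia were 1.18 and 0.54 for neurons, 3.98 and 3.00 for endothelial cells and pericytes, and 2.95 and 1.89 for fibroblasts. The glutamate transporter Slc1a3, known from astrocytes, was at 22.5 and 19.7 RPKM in microglia and listed at 0 in BV2 cells. The clusterin gene Clu, with 32.0, 21.3, 32.2 and 24.1 RPKM in BV2 cells, against 0.698 and 1.20 RPKM in microglia (log2 difference 3.86, SE 0.21, adjusted p = 1.12e-05), the VEGF receptor Flt1, with 44.4, 18.9, 44.1 and 20.6 RPKM in BV2 cells, against 0.182 and 0.267 RPKM in microglia (log2 difference 4.64, SE 0.40, adjusted p = 7.61e-05), and the von Willebrand factor gene Vwf, with 6.35, 1.47, 6.65 and 1.25 RPKM in BV2 cells, against 0.066 and 0.02 RPKM in microglia (log2 difference 2.01, SE 0.58, adjusted p = 0.0186), were genes of astrocytes or endothelium that the line expressed while Gfap, Cldn5 and Cdh5 were listed at 0. Without 1 microglia library the adjusted p of Vwf was 0.126 (Q7/7 left out) or 0.136 (Q175/175 left out). Xist was expressed in the line and in microglia, at 26.2, 15.6, 29.0 and 18.3 RPKM in BV2 cells, against 35.4 and 49.5, and the Y-linked Kdm5d and Uty were under 0.1 RPKM in all 6 libraries.

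The marks near transcript starts in BV2 control cells were counted for classes of genes that had themselves been set in part by RNA level in BV2 cells. Kept and expressed genes had 5 RPKM or more in all 6 libraries, and lacked genes under 0.5 RPKM in BV2 cells. The contrast between these 2 classes was thus partly set by the filter. An H3K4me2 peak within 1000 bases of the start was listed for 904 of the 925 kept and expressed genes (97.7%), for 64.2% of those at least 4-fold lower and for 47 of the 182 lacked genes (25.8%), in empty-vector cells, against 13.3% of the genes that were not tested. PU.1 was listed for 47.1% of kept genes, 36.0% of those at least 4-fold lower and 23.1% of lacked genes, against 38.9% of all tested. Among the 701 tested genes with a BV2 mean under 0.5 RPKM, the shares were 36.2% for H3K4me2 and 19.5% for PU.1. These 701 include the 182 lacked genes. Among lacked genes, 21 had both marks and 114 had neither. The gained genes had H3K4me2 in 58.1%, against 88.6% of all tested genes, and 59 of these 203 have copies. C/EBP beta and C/EBP alpha peaks were listed near 33.5% and 10.7% of kept genes and 11.5% and 8.79% of lacked genes in empty-vector cells, but near 60.4% and 29.3% of kept genes in wild-type fragment cells, so the C/EBP lists of the 2 constructs differed in extent and their shares were read only within a list.

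**Figure D5:**
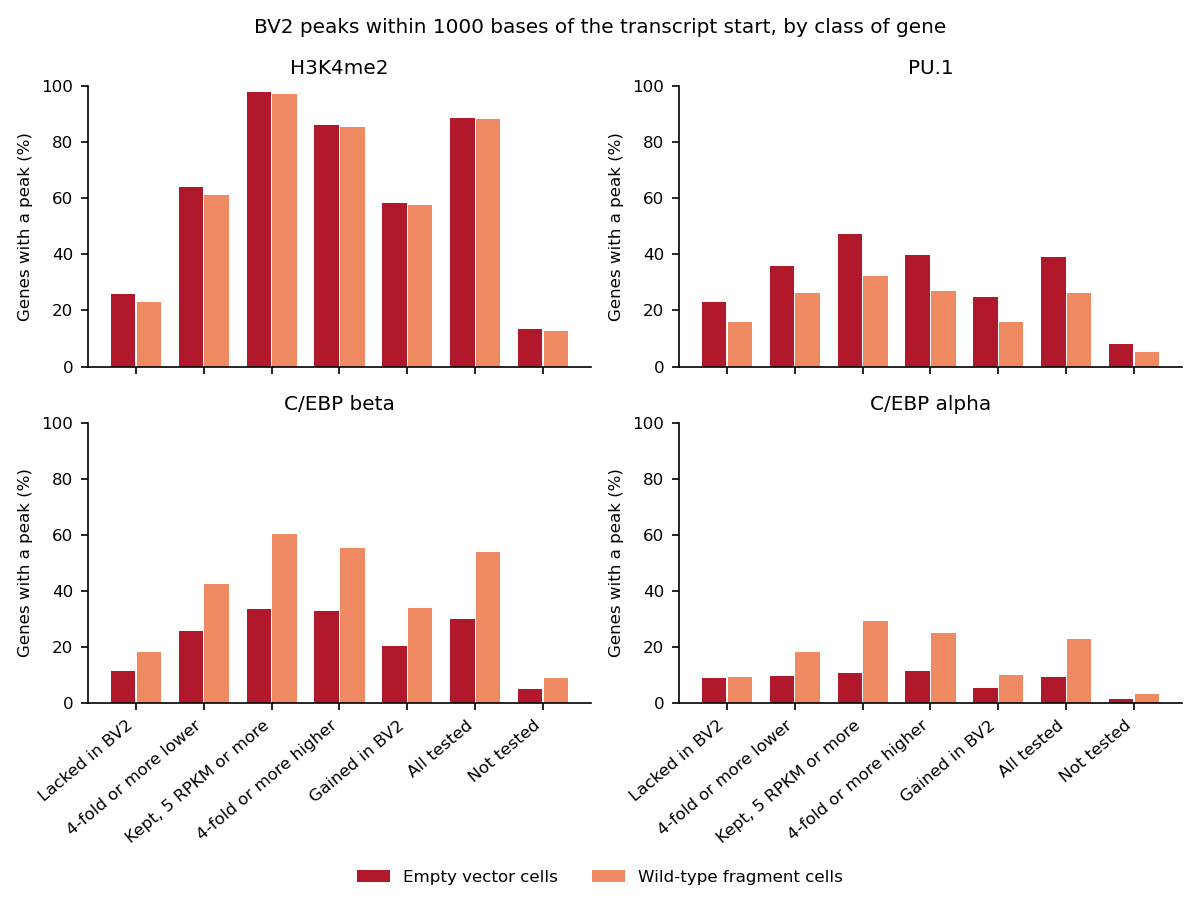
Share of genes (vertical axes, %) with a peak within 1000 bases of the transcript start in BV2 control cells, by class of gene (horizontal axis), for H3K4me2, PU.1, C/EBP beta and C/EBP alpha, with 1 bar for the empty-vector and 1 for the wild-type fragment library. H3K4me2 was listed for 97.7% of kept and 25.8% of lacked genes in empty-vector cells, classes that were set in part by RNA level in BV2 cells.

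The macrophage libraries showed which of these genes other primary macrophages express. Of the 182 lacked genes, 42 (23.1%) had 5 RPKM or more in both macrophage libraries and 64 (35.2%) were under 0.5 RPKM in both. Of the 1351 genes at least 4-fold higher in BV2 cells, 719 (53.2%) had 5 RPKM or more in both macrophage libraries, against 357 of the 734 at least 4-fold lower (48.6%) and 49.2% of all tested genes. The higher ones included Spp1, Gpnmb, Lgals3, Vim and Mki67. Of the 203 gained genes, 48 did and 83 were under 0.5 RPKM in both. The melanosomal exchanger gene Slc24a5, with 38.7, 40.9, 38.2 and 48.0 RPKM in BV2 cells, against 0.075 and 0 RPKM in microglia, and the germ cell gene Tex101, with 54.7, 54.6, 57.9 and 58.4 RPKM in BV2 cells, against 0 and 0 RPKM in microglia, were gained genes with little RNA in macrophages, at 0.818 and 1.56 RPKM of Slc24a5 and 0.063 and 0 RPKM of Tex101. Genes that macrophages expressed and BV2 cells lacked included Ctsh, Pros1 and Pycard.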

How the data were processed

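RNA levels were measured by RNA-seq in 10 samples and peaks by ChIP-seq in 12, and 6 RNA libraries entered the tests. Values were deposited by the authors as RPKM in 1 table of 31641 RefSeq transcripts. STAR 2.0.3e, HOMER and edgeR, with Bowtie for ChIP-seq, and the mouse build mm9 are named in the submitters' processing notes, with no role or settings, and no source used here gives the treatment of reads that match several places. The deposited peak lists give a score of 1 for every peak, so only positions were used, on mm9. The 2 BV2 columns of the second time carry 6 h in the table header and 48 h in the labels and were assigned to their groups only. Low values of transcripts with 1 copy and of intermediate length fell on whole numbers of reads (100% within 0.1 read), which gave the depths. Higher values and other transcripts were not checked in this way.

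Each symbol was represented by its transcript of highest mean RPKM, lengths under 200 bases were left out, and genes with 1 RPKM or more in at least 2 of the 6 libraries were tested with limma 3.58.1 in R 4.3.3 on log2(RPKM + 1), 4 BV2 against 2 microglia libraries, with Benjamini-Hochberg adjustment over all 10812 genes and a threshold of 0.05. Differences are BV2 minus microglia and understate the change of genes near the pseudocount of 1. Peaks within 1000 bases of the start were counted as near a gene. The steps were tested on simulated data. The alternatives varied pseudocount, filter, scaling, transcript choice, BV2 libraries, variance prior and libraries left out.

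The members and the 43 gene lists were chosen with earlier results of these data known. Named were Htt, members of the homeostatic and myeloid factor lists, the first 3, the 5 largest called and the 3 most abundant kept members of every other list, and the 12 largest differences each way, the 12 most abundant kept genes and the 12 most abundant lacked and gained genes. Named outside this rule, after their values were seen, were Abca1, Adora3, Atp6v0d2, Axl, Ccl7, Ccnd3, Cd52, Cd74, Cd86, Cdc20, Cdkn1b, Cfp, Clec7a, Csf2rb, Csf2rb2, Ctsd, Cxcr4, Cybb, Emr1, Fabp4, Fcer1g, Fscn1, Gpr84, Havcr2, Hk2, Hmox1, Ifitm3, Igf1, Il6, Junb, Lcp1, Ldhb, Lyz2, Mcoln3, Mki67, Myd88, Nos2, Oasl1, P2rx4, P2ry2, Pcna, Ptafr, Ptprc, Pycard, S1pr2, Slc24a5, Tex101, Timp2, Tlr6 and Vegfa. Some genes that the rule names are not reported here. The mutant fragment libraries were not used here.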

Additional observations from a re-analysis of the deposited data

Results flagged for a closer look

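Among named genes, the 4 BV2 libraries held a value far from the other 3, its gap to the nearest being more than Dixon's 95% share of the range, for Ccnd3 (0.858 of the range), Eif4ebp1 (0.978 of the range), Hk2 (0.838 of the range), Lpl (0.917 of the range), Nfe2l2 (0.954 of the range) and Psme2 (0.838 of the range). Chance alone flags about 1 in 20 groups of like replicates, but these 4 libraries differ in construct and time, so that rate need not hold here. Lpl, for example, had 74.3, 73.2, 86.3 and 73.7 RPKM in BV2 cells, against 2.42 and 2.13 RPKM in microglia, and Eif4ebp1, which codes for a translation repressor, had 37.4, 37.5, 32.6 and 37.4 RPKM in BV2 cells, against 3.20 and 2.99 RPKM in microglia.

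For 15 named genes the 24 h BV2 libraries lay on one side of both microglia libraries and the second-time libraries on the other, so that the difference from microglia had opposite signs at the BV2 times. This difference was not tested, and each time rests on 2 libraries. The ratio of the mean at 24 h to the mean at the second time was 1.88 for Abcg1, 0.584 for Actb, 0.278 for Ccl9, 1.95 for Cd300a, 2.96 for Cd74, 1.35 for Cd9, 2.26 for Clec7a, 2.18 for Emr1, 4.82 for F13a1, 2.07 for Fcgr2b, 0.626 for Heatr1, 1.80 for Laptm5, 2.60 for P2rx4, 1.65 for Psap and 1.92 for Trpv2. Over all 10812 tested genes, 415 (3.84%) had this pattern, 126 of them with 24 h above microglia. The coagulation factor gene F13a1 had 9.97, 2.13, 11.2 and 2.27 RPKM in BV2 cells, against 7.04 and 3.04 RPKM in microglia, and the chemokine gene Ccl9 had 8.42, 28.5, 7.94 and 30.4 RPKM in BV2 cells, against 15.0 and 14.6 RPKM in microglia. The cause of these differences between times was not tested.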

How the results depend on the processing

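The number of genes that passed the test changed little with most settings, although with construct and time terms within BV2 cells 5574 were higher, 3622 lower and 4497 kept, and that of large differences moved with the pseudocount. With a pseudocount of 0.1 RPKM, 2239 genes were at least 4-fold higher, 1226 at least 4-fold lower and 2317 kept, and with 5 RPKM the counts were 543, 275 and 6957. Without a filter 9438 genes were kept of 16968 tested, and at 5 RPKM or more, with 6575 tested, 5215 passed, 1791 of them lower, and 1485 were kept. With quantile normalization after leaving out genes with copies, an alternative chosen after seeing the data, 869 genes were at least 4-fold higher. The other alternatives added in that way left out genes with copies, or genes under 1 RPKM in macrophages. Leaving out 1 library gave 6223 to 7907 genes that passed, 3497 to 4829 higher and 2555 to 3089 lower, with 1224 to 1413 at least 4-fold higher, 704 to 749 at least 4-fold lower and 2566 to 3474 kept. The lowest counts came without a microglia library, where the spread of the lone library was assumed to be like that of the BV2 cells. Of 341 named genes that passed and were not kept, 305 passed in the same direction under all settings run and 36 did not, and only Fcer1g changed sign (-0.24 after quantile normalization, adjusted p = 0.377). Of 75 named kept genes, 56 left the 2-fold interval under some setting, and all 18 named genes that were neither called nor kept passed under at least 1 setting. Peak shares grew with the window, with H3K4me2 near 41.2% of lacked genes at 5000 bases. No paired analysis was possible because the labels give no replicate number that the 2 sides share. Depth limits the low genes: a gene listed at 0 in BV2 cells had no read among 11.1 to 14.0 M mapped reads.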
